A study of Mus musculus with 14 samples.

Results

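CD4+CD8+ thymocytes of ENK KO mice were compared with those of wild-type (WT) mice on 5 of the 14 arrays of the series, all of the thymus arrays. The members were chosen by their labels alone: thymus WT replicates 7, 32 and 38 (n = 3) and thymus ENK KO replicates 1 and 29 (n = 2). All 5 samples came from mice of the C57BL/6 strain, and cells were isolated by flow sorting. WT replicate 7 was a female of 7 months, and WT replicates 32 and 38 were males of 7 months. ENK KO replicate 29 was a male of 7 months, but ENK KO replicate 1 was a female of 2 months, so the younger age occurred in the mutant group only. The labels do not spell out ENK or describe the allele, although Engrailed-2, a transcription factor with a homeodomain, stands in the title of the series. They also do not state outright that each sample was a separate animal, so p-values here measure the spread between these samples. RNA was measured on single-channel Affymetrix arrays as log2 expression values per probe set. The number of arrays limits the precision throughout.

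CD4+CD8+ thymocytes, also called double-positive cells, are the intermediate stage of T cell development. Their precursors, which carry neither co-receptor, rearrange the T cell receptor beta chain, receive Notch and pre-T cell receptor signals and divide in a burst. The cells that follow leave the cell cycle, rearrange the alpha chain with the Rag recombinase, and are tested for binding to self-peptides on MHC molecules. A sorted double-positive population therefore holds some large dividing cells and mostly small resting ones. In bulk RNA, fewer cells of a kind and less RNA per cell cannot be told apart.

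The 5 arrays carried the markers of the sorted population. Cd4 lay between 12.94 and 13.13, Cd8a between 12.89 and 13.23, Rag1 between 12.83 and 13.16, Dntt between 12.17 and 12.37, and Arpp21 between 12.37 and 12.61. Array medians lay between 7.18 and 7.19. Across the 21640 probe sets with 1 gene symbol, before any filter, pairs of arrays correlated at Pearson's r of 0.994 to 0.997. Xist was at 13.28 and 13.37 on the arrays labelled female and between 5.80 and 6.38 on the others. En2, En1 and Penk, candidates for the gene behind the name ENK, lay between 5.79 and 6.91 on all 5 arrays, around or under the filter level of 6.76. En2 was at 6.01 on the 3 WT arrays and ENK KO replicate 1, and at 6.14 on ENK KO replicate 29 (difference 0.065, exact two-sided permutation p = 0.4). En1 differed by -0.16 and Penk by -0.034 (exact two-sided permutation p = 0.3 each). With 3 arrays against 2 such a test cannot give less than 0.1, and the place of the probes relative to any deletion is not known here. The spread in the model was shared with 9 spleen CD8+ arrays, among them a library labelled spleen ENK KO replicate 28 that stood apart from its group, so the calls are given with and without it.

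Few genes differed between ENK KO and WT thymocytes. Slc7a11, which encodes the cystine-importing subunit of the cystine-glutamate exchanger, and Srpk2, a kinase that phosphorylates serine/arginine-rich splicing factors, rose on both ENK KO arrays. Limma with Benjamini-Hochberg adjustment over all genes tested called these 2 genes higher (0.0147% of 13641) and 0 lower, with 245 genes higher (1.8%) and 236 lower (1.73%) at an unadjusted p under 0.05. The median difference over all genes was 0. When that library was left out, 5 genes were called, the others being Ankrd50 (higher), Agtrap and Cd1d2 (both lower). When single WT arrays were left out, 2 (replicate 7), 1 (replicate 32) and 13 (replicate 38) genes were called. Leaving out single mutant arrays gave 4 (replicate 1) and 14 (replicate 29). With the thymus arrays alone, and in males alone, limma called 0 genes (339 and 473 at an unadjusted p under 0.05).

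Because the mutant group held 2 arrays, genes were also described by whether both ENK KO values lay outside the range of the 3 WT values. Both lay above it for 551 genes (4.04%) and below it for 711 (5.21%). The distance between the groups was small for most: it reached 0.25 on the log2 scale for 14 genes above (0.103%) and 27 below (0.198%). These 41 genes made up 0.301% of those tested, and for 24 of them the 2-month-old ENK KO array lay farther from the WT mean than the 7-month-old one. The deposited values hold many ties between arrays, and 748 of the tested genes had 1 value on all 5. Centring each array on its median gave 627 genes above and 1517 below, so the balance of the small differences depends on the scaling, while the counts at 0.25 were again 14 and 27.

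**Figure D1:**
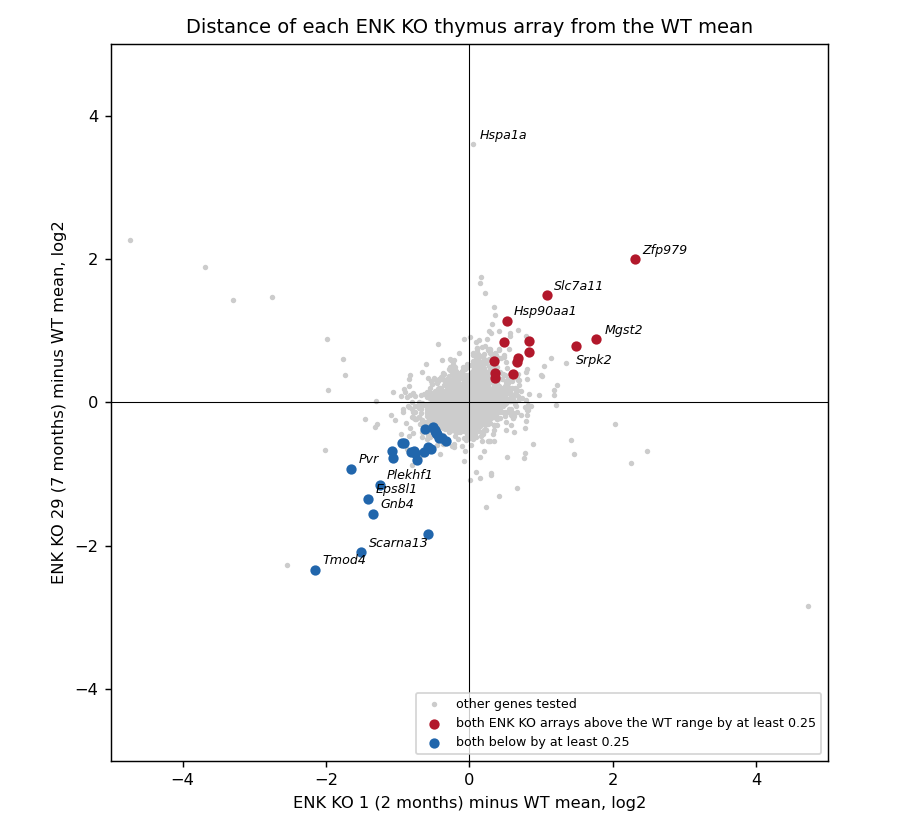
Each point is a gene tested; the x axis gives the value on ENK KO replicate 1 (2 months) and the y axis that on ENK KO replicate 29 (7 months), both as log2 difference from the mean of the 3 WT arrays. Red points (14) lay above the WT range on both arrays by at least 0.25 and blue points (27) below it; Hspa1a stood apart on the 7-month-old array alone.

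Slc7a11 had the largest distance above the WT range among all genes tested. Its log2 values were 10.72, 10.86 and 10.42 on WT replicates 7, 32 and 38, and 11.75 and 12.16 on ENK KO replicates 1 and 29. Both mutant arrays lay above all WT arrays, and the lower of them cleared the highest WT value by 0.89. The mean was 10.66 ± 0.23 (SD, n = 3) in WT and 11.95 ± 0.29 (SD, n = 2) in ENK KO, a 2.45-fold rise (log2 1.29, SE 0.14, limma adjusted p = 0.00843). Across the alternatives its difference ran from 1.08 to 1.52, and with the thymus arrays alone its adjusted p in limma was 0.869. In spleen CD8+ cells, where the gene lay under the filter level, the means were 5.58 in WT and 5.40 in ENK KO.

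The promoter of Slc7a11 is shown because the exchanger is a known target of ATF4, the transcription factor of the amino acid response, and of NRF2, the factor of oxidative defence. The sequence covers the 250 bases before the start site on the minus strand, chr3:50443614-50443863 in GRCm38.p6 (RefSeq), with amino acid response elements (TGATGNAA on either strand) in capitals.
Slc7a11: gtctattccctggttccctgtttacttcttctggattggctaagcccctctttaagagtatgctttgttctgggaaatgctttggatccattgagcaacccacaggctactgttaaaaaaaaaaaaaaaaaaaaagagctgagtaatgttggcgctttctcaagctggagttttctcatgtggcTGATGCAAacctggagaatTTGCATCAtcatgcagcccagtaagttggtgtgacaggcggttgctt
The promoter holds 2 such elements, facing each other, at 66 to 59 and, on the opposite strand, 47 to 40 bases before the start. It holds 0 antioxidant response element cores (TGACNNNGC on either strand). Among genes tested with a promoter sequence, the amino acid response element occurred in 2% of 10823. Among the 19 listed genes of the amino acid response with a promoter sequence it occurred in 5 (26.3%). Of the 4 of these 19 that lay above the WT range, 1 held it, Slc7a11 itself. A match describes letters only.

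Other genes of cystine and glutathione metabolism were mostly level between the groups. Of 25 tested, 3 lay above the WT range on both ENK KO arrays and 1 below it (4.04% and 5.21% of all genes). Limma called 1 (Slc7a11), and the median difference was near 0. Mgst2, a microsomal glutathione transferase, was at 8.17, 7.52 and 7.11 on the WT arrays and at 9.36 and 8.48 on ENK KO replicates 1 and 29. The groups did not overlap, but the WT arrays spread over more than a log2 unit and limma gave a difference of 1.32 with an SE of 0.46 (adjusted p = 1). Slc3a2, the heavy chain that pairs with the Slc7a11 product, differed by 0.17. Gclc and Gclm, the subunits of the rate-limiting enzyme of glutathione synthesis, differed by -0.025 and -0.0011, and Hmox1 and Txnrd1, classic NRF2 targets, by -0.034 and -0.038.

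The listed amino acid response genes had 5 of 23 members above the WT range and 1 below it (4.04% and 5.21% of all genes). Their median difference was 0.041. Beside Slc7a11, those above were Psat1 (0.15) and Phgdh (0.11), which act in serine synthesis, and the amino acid transporter genes Slc7a5 (0.11) and Slc3a2. Slc1a5, a glutamine and neutral amino acid transporter, lay the other way. It was at 10.96, 10.70 and 10.66 in WT and 10.02 and 10.06 in ENK KO, a difference of -0.73 (SE 0.40, limma adjusted p = 1). Atf4 itself differed by -0.036, and the ATF4 targets Ddit3, Trib3, Asns and Chac1 by -0.11, 0.041, -0.042 and 0.042.

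Srpk2 was the other gene called higher. Its values were 9.66, 9.62 and 9.61 on the WT arrays, and 11.12 and 10.41 on ENK KO replicates 1 and 29. The WT arrays were nearly level while the mutant arrays differed from each other by more than any pair of WT arrays, and the groups did not overlap. The rise was 2.20-fold (log2 1.14, SE 0.14, limma adjusted p = 0.0179). The call was lost with an indicator of the age of 2 months (1.07, adjusted p = 0.104), without WT replicate 7 (adjusted p = 0.0645), without WT replicate 32 (adjusted p = 0.0852) and in males only (0.80, adjusted p = 0.171). The age indicator was shared with spleen ENK KO replicates 3 and 6, of the same age, so it is not an age effect of thymus alone. Of 26 genes for SR proteins and their kinases, 4 lay above the WT range and 0 below (4.04% and 5.21% of all genes). Apart from Srpk2 those differences were small, such as 0.09 for Son, a nuclear speckle protein, and 0.06 for the splicing factor gene Srsf4.

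**Figure D2:**
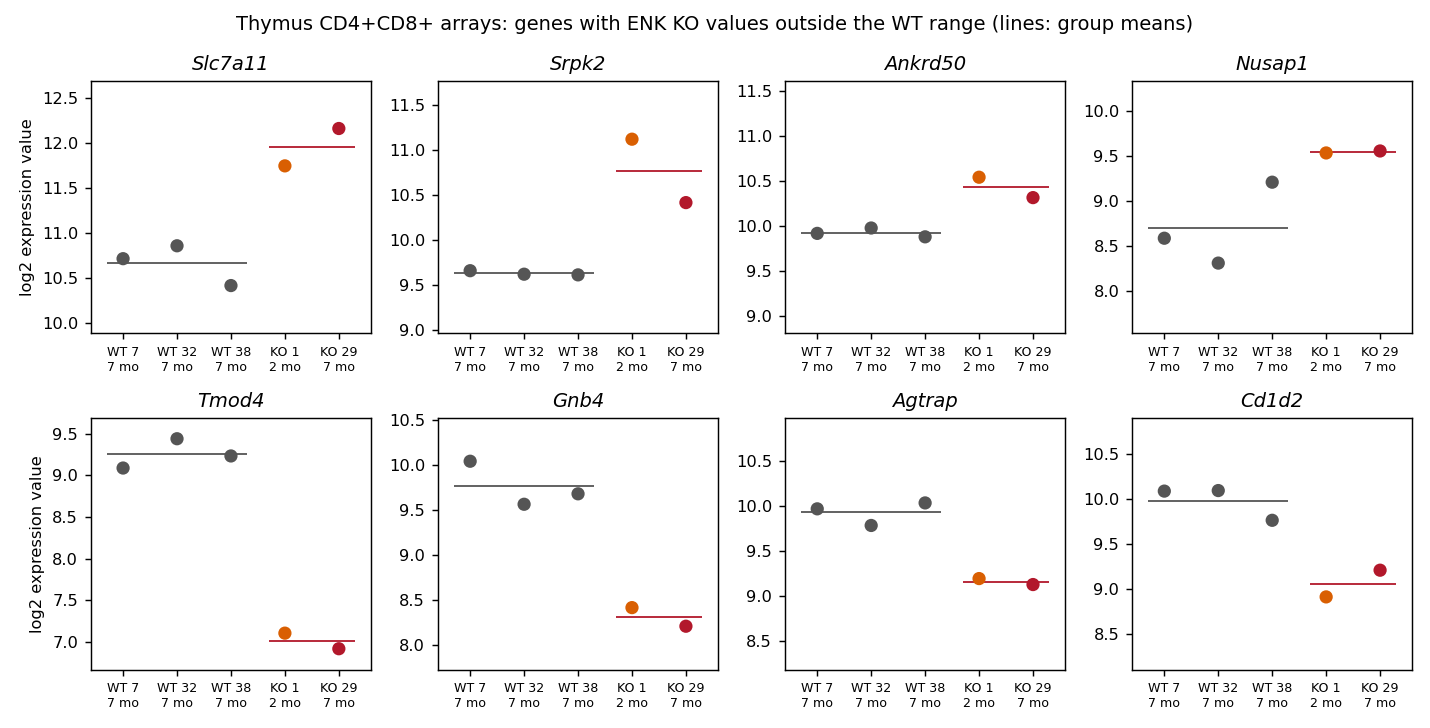
Log2 expression (y axis) of 8 genes on each of the 5 thymus arrays (x axis, with age in months); points are single arrays and lines are group means. Each panel spans its own range of values, and in each the 2 ENK KO arrays lie outside the range of the 3 WT arrays.

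Genes of cell division stood above the WT range together. Of 47 mitotic genes tested (51 listed), 28 had both ENK KO arrays above all 3 WT arrays and 0 had both below, against 4.04% and 5.21% of all genes. Their median difference was 0.36 and 45 of the 47 differences were above 0, but limma with adjustment over all genes called 0 (33 had an unadjusted p under 0.05, in the higher direction). The mean of the list was 8.10, 7.97 and 8.28 on WT replicates 7, 32 and 38, 8.36 on ENK KO replicate 1 and 8.57 on ENK KO replicate 29. The younger mutant array was thus close to the highest WT array, and the 7-month-old one was above it. Set against WT alone, ENK KO replicate 1 gave a median difference of 0.22 and ENK KO replicate 29, of the same age as the WT mice, one of 0.43.

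Cdk1, the main mitotic kinase, had the largest distance in this list. It was at 8.21, 7.75 and 8.27 on the WT arrays and at 8.74 and 8.64 on ENK KO replicates 1 and 29 (difference 0.61, SE 0.15, limma adjusted p = 0.502). Both mutant values lay above the WT range, and WT replicate 32 was the lowest array. Nusap1, a spindle-associated protein, was at 8.58, 8.31 and 9.21 in WT and at 9.53 and 9.55 in ENK KO (0.84, SE 0.19, adjusted p = 0.487). Prc1, which cross-links the microtubules of the central spindle, was at 7.29, 7.23 and 7.42 in WT and 7.67 and 7.72 in ENK KO. Plk1, a kinase of mitotic progression, was at 8.36, 8.02 and 8.35 in WT and 8.58 and 8.67 in ENK KO. In all 4 genes the mutant arrays lay close to each other, whereas WT replicate 32 was the lowest of the WT arrays.

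Other members of the list showed the same order with a wider step on the older mutant array. Bub1, a spindle checkpoint kinase, was at 7.90, 7.58 and 8.13 in WT, 8.28 on ENK KO replicate 1 and 8.86 on ENK KO replicate 29. Top2a, the topoisomerase that untangles chromosomes, was at 9.13, 8.54 and 9.40 in WT and 9.60 and 9.99 in ENK KO. Those that overlapped included Mki67 (9.89, 9.78 and 10.27 in WT; 10.20 and 10.76 in ENK KO), Ccnb2 (difference 0.044), Kif23 (-0.013) and Cdc25b (-0.070). In spleen CD8+ cells the median difference of the list was 0.024. For 26 of the 47 genes the spleen effect differed from the thymus effect at an unadjusted p under 0.05, against 2.99% of all genes. Limma called 0 of these differences after adjustment (0.00733% of all genes were called). Nusap1 (means of 5.89 in WT and 5.88 in ENK KO) and Prc1 (6.21 and 6.42) lay under the filter level in spleen. Cdk1 (7.03 and 7.12) lay close above it. A change in spleen can be missed under that level, although Prc1 differed there by 0.20 (limma unadjusted p = 0.0112). The count therefore does not show an effect particular to thymus.

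Promoters of mitotic genes are shown because many are known to carry CCAAT boxes, bound by NF-Y, and a cell cycle homology element near the start, through which the DREAM complex represses them in resting cells. Each sequence gives the 250 bases before the start on the minus strand in GRCm38.p6 (RefSeq), with CCAAT on either strand and TTTGAA in capitals: Cdk1 at chr10:69352913-69353162, Bub1 at chr2:127831860-127832109 and Ckap2, a spindle protein gene, at chr8:22185820-22186069.
Cdk1: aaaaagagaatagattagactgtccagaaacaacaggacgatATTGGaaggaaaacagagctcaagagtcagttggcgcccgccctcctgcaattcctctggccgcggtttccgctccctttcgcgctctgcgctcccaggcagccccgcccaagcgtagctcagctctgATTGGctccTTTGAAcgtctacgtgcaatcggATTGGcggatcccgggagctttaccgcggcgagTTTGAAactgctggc
Bub1: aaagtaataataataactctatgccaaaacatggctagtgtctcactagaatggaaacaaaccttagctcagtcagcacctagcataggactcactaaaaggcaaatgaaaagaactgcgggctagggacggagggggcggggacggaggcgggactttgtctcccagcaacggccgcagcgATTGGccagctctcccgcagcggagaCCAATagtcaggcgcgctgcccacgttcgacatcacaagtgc
Ckap2: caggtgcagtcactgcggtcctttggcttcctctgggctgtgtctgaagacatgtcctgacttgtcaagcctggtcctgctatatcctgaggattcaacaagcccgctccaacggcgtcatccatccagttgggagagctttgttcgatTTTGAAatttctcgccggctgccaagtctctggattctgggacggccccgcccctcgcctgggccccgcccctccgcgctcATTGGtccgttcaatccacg
The Cdk1 window holds 3 CCAAT boxes, at 208 to 204, 80 to 76 and 48 to 44 bases before the start, and 2 TTTGAA elements, at 71 to 66 and 15 to 10. Bub1 holds 2 CCAAT boxes, and Ckap2 holds 1 CCAAT box and 1 TTTGAA element. The windows of Prc1 and Plk1, not printed, hold a CCAAT box but no TTTGAA element, and that of Nusap1 holds neither. Among 38 listed mitotic genes with a promoter sequence, 26 held CCAAT (68.4%) and 16 held TTTGAA (42.1%) on either strand, against 35.4% and 10.7% of the 10823 tested genes with one. Of the 24 that lay above the WT range, 14 held CCAAT and 11 TTTGAA.

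Genes of DNA synthesis showed a smaller step. Of 51 replication and nucleotide supply genes, 13 lay above the WT range and 0 below, against 4.04% and 5.21% of all genes. Their median difference was 0.15, and limma called 0 (15 higher at an unadjusted p under 0.05). The list mean was 8.68, 8.59 and 8.72 on the WT arrays, 8.75 on ENK KO replicate 1 and 8.95 on ENK KO replicate 29. Rrm2, a subunit of ribonucleotide reductase, was at 9.46, 9.01 and 9.35 in WT, 9.63 on ENK KO replicate 1 and 10.50 on ENK KO replicate 29. Rfc3, part of the clamp loader, was at 8.14, 8.02 and 8.04 in WT and at 8.34 and 8.35 in ENK KO. Rrm2 stood highest on the older mutant array, while Rfc3 was level between the mutant arrays. For ENK KO replicate 1 alone the median difference of the list was 0.062, and for ENK KO replicate 29 alone it was 0.22. The E2F-like element TTCCCGC, searched on both strands, occurred in 10 of 43 promoters of the list (23.3%) and in 6.5% of all tested.

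Histone genes that are expressed with DNA synthesis had 7 of 25 members above the WT range and 0 below. The shares over all genes were 4.04% and 5.21%, and the median difference of the list was 0.15. H2ac4, a histone H2A gene, was at 7.17, 6.73 and 7.33 in WT and at 7.76 and 7.70 in ENK KO (difference 0.65, SE 0.19, limma adjusted p = 0.951). H1f1, a linker histone gene, was at 11.64, 11.27 and 11.09 in WT and at 12.02 and 11.73 in ENK KO. On the mutant arrays both genes lay above the WT range. The list median was 0.061 without WT replicate 7 and 0.089 without ENK KO replicate 29. Histone genes are near-identical copies, so probe sets may not tell them apart. Asf1b, a histone chaperone of replication outside these lists, was at 9.38, 9.19 and 9.30 in WT and at 9.63 and 9.86 in ENK KO. Cyclins, kinases and inhibitors of G1 did not share the pattern: 1 of 23 lay above the WT range, Ccnd3 (0.25), a D-type cyclin of dividing thymocytes, and their median difference was near 0.

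**Figure D3:**
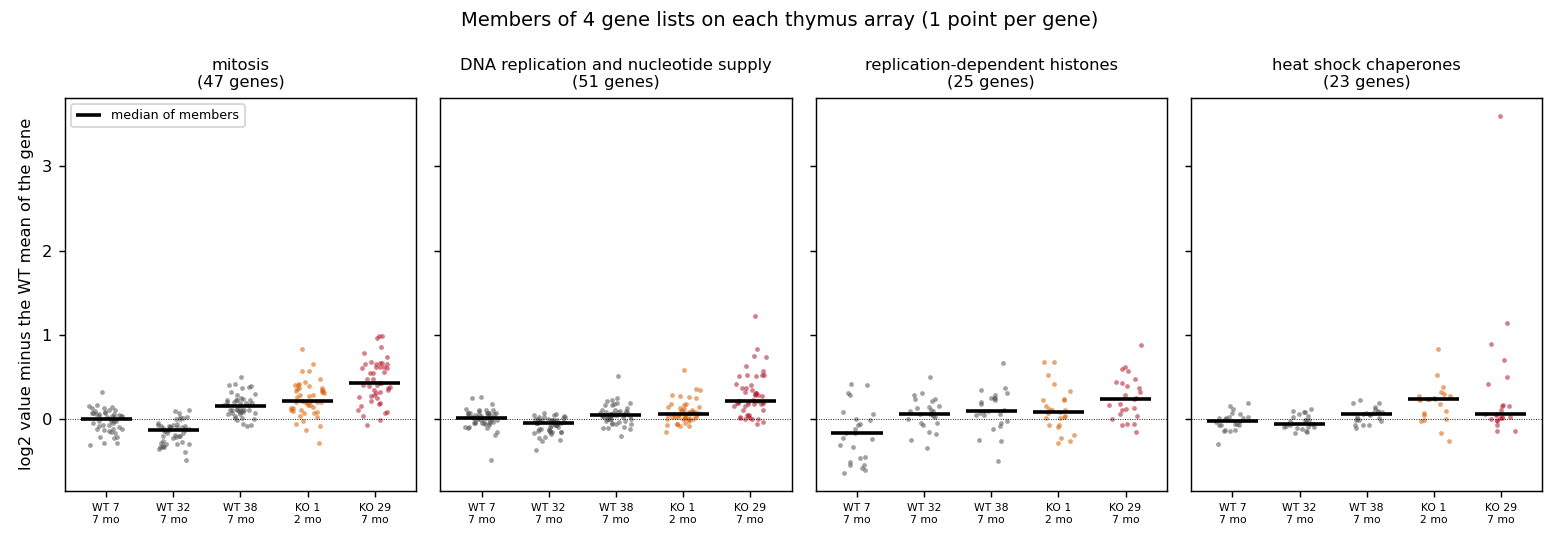
Each point is a gene of 1 of 4 lists on 1 thymus array, as log2 value minus the gene's WT mean (y axis); black bars are the median of the members on that array. Mitotic genes were highest on ENK KO replicate 29, and a single heat shock gene, Hspa1a, lay far above the others on that array.

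Heat shock chaperones were higher on both mutant arrays in part. Of 23 tested, 8 lay above the WT range and 0 below, against 4.04% and 5.21% of all genes. Their median difference was 0.14, and limma called 0 (2 higher at an unadjusted p under 0.05). Hsph1, an Hsp110 chaperone, was at 8.52, 8.91 and 9.01 in WT and 9.65 and 9.52 in ENK KO (difference 0.77, SE 0.48, adjusted p = 1). Hsp90aa1, the inducible Hsp90, was at 11.59, 11.67 and 11.92 in WT and 12.25 and 12.87 in ENK KO, and its 3 probe sets differed by 0.83, 0.84 and 0.87. Groups did not overlap for either gene. The constitutive Hsc70 gene Hspa8 (0.27) and the mitochondrial chaperonin genes Hspd1 (0.57) and Hspe1 (0.39) also lay above the WT range. Hspa1a, the stress-induced Hsp70, did so on 1 array only: it was at 7.59, 7.44 and 7.54 in WT, 7.57 on ENK KO replicate 1 and 11.13 on ENK KO replicate 29. The list median was 0.24 for ENK KO replicate 1 alone and 0.064 for ENK KO replicate 29 alone.

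Jun, a subunit of AP-1, was at 10.81, 10.14 and 11.11 in WT and at 11.36 and 11.69 in ENK KO (difference 0.84, SE 0.48, limma adjusted p = 1). Of 23 AP-1 and immediate early genes 3 lay above the WT range, the others being Jund (0.24) and Klf4 (0.18), and 0 lay below. The shares over all genes were 4.04% above and 5.21% below. Sipa1l1, a GTPase-activating protein for Rap, was at 9.30, 9.14 and 9.07 in WT and at 9.65 and 10.01 in ENK KO (0.66, SE 0.14, adjusted p = 0.398). Retsat, a retinol saturase gene, was at 7.01, 6.90 and 6.95 in WT and at 7.31 and 7.30 in ENK KO. Both mutant arrays lay above the WT range for each of these genes. Zfp979, a zinc finger gene, had a difference of 2.15 (SE 1.39, limma adjusted p = 1), partly through WT replicate 38. It was at 6.88, 6.97 and 3.44 in WT and at 8.07 and 7.76 in ENK KO. Both mutant arrays also lay above the other WT arrays, and the lowest difference across the alternatives was 0.99.

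Of 22 genes of the Notch pathway, which acts in the stage before double-positive cells, 4 lay above the WT range (4.04% of all genes), 0 lay below, and the median difference was 0.019. Ptcra, the pre-T cell receptor alpha chain, was at 7.98, 8.17 and 7.98 in WT, 8.74 on ENK KO replicate 1 and 8.28 on ENK KO replicate 29 (difference 0.47). Il2ra, the CD25 marker of early thymocytes, was at 8.63, 8.18 and 8.19 in WT and at 9.34 and 8.71 in ENK KO (0.69). Both were highest on the 2-month-old array. Dtx1 (0.38), a Notch regulator, and the receptor gene Notch3 (0.27) were the others of the 4 above the range. The same 4 genes were those above the range among 13 markers of early CD4-CD8- thymocytes, where 0 lay below. The mean of these 13 markers was 7.74, 7.74 and 7.83 on the WT arrays, 8.04 on ENK KO replicate 1 and 7.88 on ENK KO replicate 29. The part of these early cells in the difference of the division genes was not tested.

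Genes of receptor rearrangement and of the double-positive stage had small median differences, but some members lay outside the WT range. Of 19 V(D)J recombination and end joining genes 5 lay above it and 0 below, against 4.04% and 5.21% of all genes. Their median difference was 0.044, and 14 of the 19 differences were above 0. Those above were Hmgb2 (0.38), which helps the recombinase bend DNA, Prkdc (0.18), Rad50 (0.14), Xrcc4 (0.12) and Mre11a (0.05), while Rag1 and Rag2 overlapped. Of 30 genes of double-positive thymocytes 2 lay above, Slc7a11 and Ptcra, and 1 below, and the median was near 0. The 1 below was Cd8b1, the CD8 beta chain, at 13.84, 13.83 and 13.81 in WT and 13.69 and 13.57 in ENK KO.

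Of 38 genes of T cell receptor signalling 5 lay below the WT range and 2 above (5.21% and 4.04% of all genes), with a median difference of -0.01. Those below were the adaptor genes Lat (-0.27), Sla2 (-0.15) and Bcl10 (-0.31) and the NFAT genes Nfatc3 (-0.12) and Nfatc2 (-0.07). Ptprc, the phosphatase CD45 (0.10), and Pag1, an adaptor that recruits the inhibitory kinase Csk (0.21), lay above. Of 26 genes of the positive selection response 0 lay above and 1 below, and 5 differences were above 0. The list median was -0.11, and -0.015 without WT replicate 7. The gene below was Gimap6, a GTPase of lymphocyte survival, at 11.48, 11.04 and 11.27 in WT and 10.32 and 10.70 in ENK KO (-0.75). Gimap5 (-0.30) also lay below the range.

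**Figure D4:**
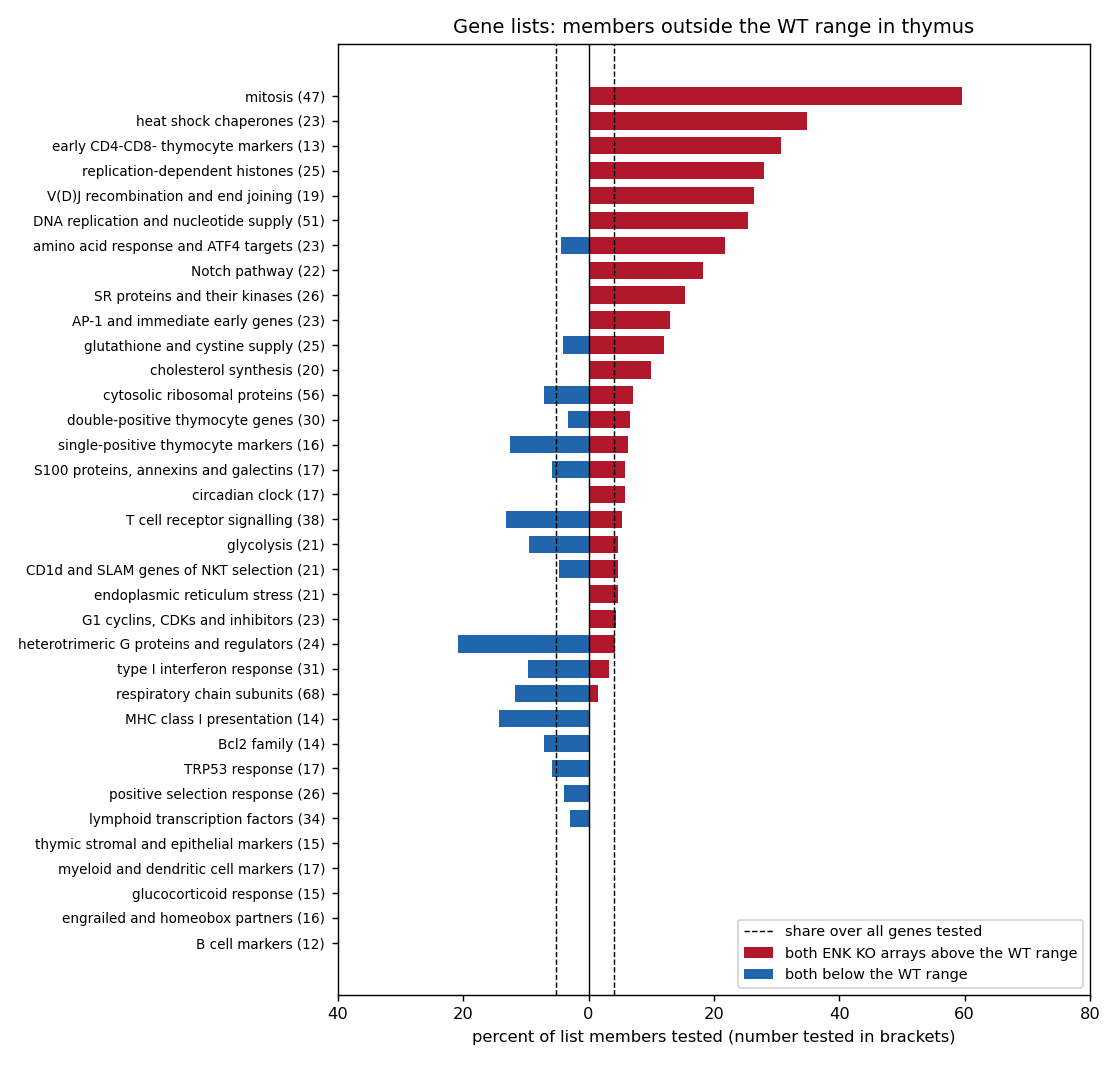
Percent of the tested members of 35 gene lists (number tested in brackets) with both ENK KO arrays above (red, to the right) or below (blue, to the left) the WT range in thymus. Dashed lines give the shares over all genes tested, 4.04% above and 5.21% below; the mitotic list reached farthest to the right with 28 of 47.

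The largest distances below the WT range belonged to genes of varied function. Tmod4, a tropomodulin that caps actin filaments and is best known from muscle, was at 9.09, 9.44 and 9.23 on the WT arrays and at 7.11 and 6.92 on ENK KO replicates 1 and 29. The higher mutant array stood at -1.98 from the lowest WT array, the largest distance of any gene tested. Limma gave a difference of -2.24 with an SE of 0.64 (adjusted p = 0.906), in a fit whose spread is shared with the spleen arrays. Gnb4, a beta subunit of heterotrimeric G proteins, was at 10.04, 9.56 and 9.68 in WT and at 8.41 and 8.21 in ENK KO (-1.45, SE 0.26, adjusted p = 0.168). Both mutant arrays lay more than a log2 unit under the lowest WT array. Of 24 genes of heterotrimeric G proteins and their regulators 5 lay below and 1 above (5.21% and 4.04% of all genes), but apart from Gnb4 the differences were small: Gpsm3 (-0.22), Gnb5 (-0.16), Rgs19 (-0.15), Gnaq (-0.08) and Gnai3 (0.11).

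Agtrap and Cd1d2 were called lower in the fit that left out the library labelled spleen ENK KO replicate 28. Leaving it out changed the spread in the model but not their thymus differences. Agtrap, a binding partner of the angiotensin receptor, was at 9.97, 9.79 and 10.04 in WT and at 9.20 and 9.13 in ENK KO (-0.77, SE 0.12). Its limma adjusted p was 0.0691 with that library and 0.0134 without it. Cd1d2, a lipid-presenting molecule of the CD1d family, was at 10.09, 10.09 and 9.76 in WT and at 8.91 and 9.21 in ENK KO (-0.92, SE 0.14, adjusted p = 0.0691 with and 0.0134 without it). Cd1d2 was also called when WT replicate 38 was left out (limma adjusted p = 0.0193). For both Agtrap and Cd1d2 the groups did not overlap. Cd1d1, the near-identical neighbour that presents lipids to NKT cells, differed by -0.26 with overlapping groups, and whether the probe sets tell these close copies apart was not tested. Of 21 CD1d and SLAM genes of NKT selection, Cd1d2 lay below the range and Psap, a lipid transfer protein gene, above it by a difference of 0.03. The shares over all genes were 5.21% below and 4.04% above. Ankrd50, an ankyrin protein of endosomal recycling, was called higher in the fit without the spleen library. It was at 9.92, 9.98 and 9.88 in WT and at 10.54 and 10.32 in ENK KO (0.50, SE 0.08, adjusted p = 0.0884 with and 0.0180 without the library).

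Among the other genes below the range, Eps8l1, an actin regulator, was at 8.67, 7.86 and 7.81 in WT and at 6.71 and 6.77 in ENK KO (-1.38, SE 0.53). Scarna13, a small Cajal body RNA that guides spliceosomal RNA modification, was at 11.34, 11.81 and 12.34 in WT and at 10.33 and 9.74 in ENK KO (-1.80, SE 0.85). Plekhf1, a phosphoinositide-binding protein of endosomes, was at 7.97, 7.44 and 7.14 in WT and at 6.27 and 6.37 in ENK KO (-1.20, SE 0.19, limma adjusted p = 0.0884). All 3 were apart from WT, and in each the WT values spread over more than the mutant ones. Pvr, the CD155 ligand of the receptors CD226 and TIGIT, was at 11.21, 10.64 and 10.28 in WT and at 9.06 and 9.78 in ENK KO (-1.29). Car2, a carbonic anhydrase abundant in red cells, was at 9.67, 9.67 and 9.37 in WT and at 8.50 and 8.89 in ENK KO (-0.87). It was the only one of 8 erythroid and platelet markers outside the WT range. Eif2ak3, the PERK kinase of the endoplasmic reticulum stress response (-0.60), and Igf1r, the receptor for insulin-like growth factor (-0.66), also lay below. So did Gpr89 (-0.75), a Golgi pH regulator, Fbxo44 (-0.74), an F-box protein, and Rps3a1 (-0.60), a ribosomal protein of the small subunit.

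Of 68 respiratory chain subunits 8 lay below the WT range and 1 above (5.21% and 4.04% of all genes), with a median difference of -0.0059, and the largest distances were in Ndufa2 (difference -0.21) and Atp5j2 (-0.25). Of 56 cytosolic ribosomal protein genes 4 lay on each side, Rps3a1 (-0.60) the farthest. Interferon response genes had 3 of 31 below and 1 above, MHC class I genes 2 of 14 below and 0 above, and lymphoid transcription factors 1 of 34 below, Tcf4 (-0.07). For 16 engrailed and homeobox partners 0 lay outside the range.

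Markers of other cells that a sort could carry along did not shift to the same side of the WT range on both mutant arrays. Of 12 B cell, 17 myeloid and dendritic, 8 NK cell, 15 stromal and 6 gamma-delta and NKT cell markers, 0 had both arrays above it and 0 both below. The B cell markers had means of 6.45, 6.52 and 6.49 on the WT arrays and 6.50 and 6.45 on the mutant ones, and 9 of the 12 lay under the filter level of 6.76 on all 5. The myeloid markers had means of 6.69, 6.79 and 6.76 in WT and 6.85 and 6.65 in ENK KO, so the mutant arrays lay on opposite sides of WT. Their median difference was 0.097 for ENK KO replicate 1 alone and -0.015 for ENK KO replicate 29 alone. Under the filter level on all 5 arrays were 9 of the 17 myeloid, 4 of the 8 NK cell and 3 of the 6 gamma-delta and NKT cell markers. Markers of single-positive thymocytes, the next stage, had 1 of 16 above and 2 below (4.04% and 5.21% of all genes). Their means were 7.93, 7.77 and 7.76 in WT and 7.79 and 7.70 in ENK KO.

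The genes outside the WT range were not spread evenly over the genome. Of the 41 genes apart by at least 0.25, 11 were on chromosome 3, which is 1.84% of the 598 genes tested there, against 30 of 12998 on all other chromosomes (0.231%). Genes outside the range by any distance made up 13.7% there and 9.06% elsewhere, but also 13.6% of the 367 tested on the X chromosome, where 1 was apart by 0.25. In gene order along the chromosome they were Car2 (17th of 598), Gnb4 (55), Ankrd50 (77), Slc7a11 (88), Mgst2 (96), Rxfp1 (157), Rps3a1 (171), Cd1d2 (176), Rit1 (217), Tmod4 (309) and Gpr89 (361). Thus 5 lay among the first 100 tested genes, 3 among the next 100, 1 and 2 in the blocks of 100 that follow, and 0 beyond the 400th. Ankrd50 and Slc7a11 were separated by 10 tested genes, Slc7a11 and Mgst2 by 7, and Rps3a1 and Cd1d2 by 4. Scnm1, a splicing factor gene next to Tmod4 that was chosen after its values were seen, had the opposite direction (10.14, 10.13 and 10.09 in WT; 10.46 and 10.37 in ENK KO). Rxfp1, a relaxin receptor, differed by -0.43 and Rit1, a Ras-related GTPase, by -0.44.

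**Figure D5:**
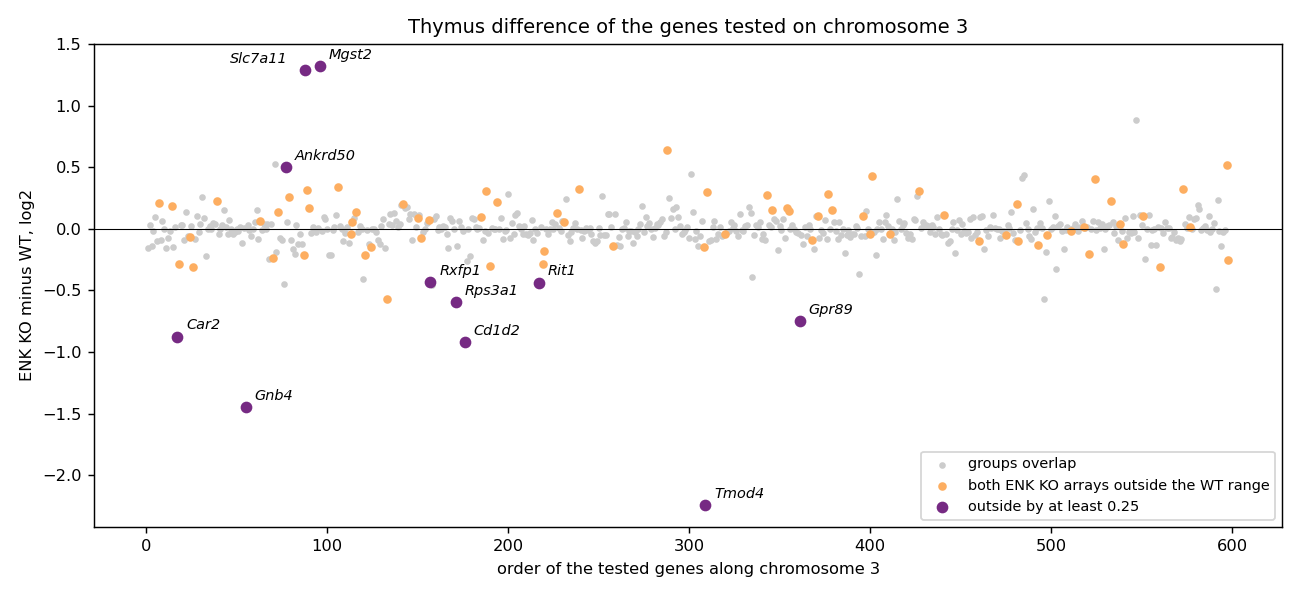
Difference between ENK KO and WT thymus means (log2, y axis) of the 598 tested genes on chromosome 3 in gene order (x axis, no distances). The 11 named genes, in purple, lay outside the WT range by at least 0.25 on both ENK KO arrays, 8 of them below it, and 9 of the 11 stood among the first 300 genes.

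The other chromosomes held at most 6 such genes each. Chromosome 6 had 5 of 652 (0.767%), namely Samd9l, Gimap6, Eif2ak3, Retsat and Pcgf1, and chromosome 12 had 3 of 461 (0.651%), Sipa1l1, Scarna13 and Hsp90aa1. On chromosome 4 (0.339%), Zfp979, Agtrap and Fbxo44 were the 752nd, 763rd and 767th of 885 tested genes. On chromosome 7 (0.531%), Eps8l1, Slc1a5, Pvr, Plekhf1 and Igf1r lay below the range and Prc1 above it, spread from the 21st to the 590th of 1129. Chromosome 11, with 1227 genes tested, had 0 such genes. On chromosome 5, which carries En2, Srpk2 was the 40th and En2 the 74th of 857 tested genes, with 33 tested genes between them. The 20 tested genes on either side of En2 held 3 above and 2 below the WT range (12.5% of 40, against 9.25% of all genes) and 0 by at least 0.25. Their differences ran from -0.15 to 0.49, the highest being that of Tyms, the thymidylate synthase of DNA synthesis. Of the 10 nearest (Insig1, Htr5a, Paxip1, Kmt2c, Galnt11, Rbm33, Shh, Rnf32, Lmbr1 and Nom1), Galnt11 (0.31) lay above and Rbm33 (-0.08) below.

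The thymus differences were compared with those of spleen CD8+ cells, measured in other samples (WT, n = 4, and ENK KO, n = 5). Spleen WT replicates 34, 37 and 40 were males and replicate 22 a female, all of 7 months. Spleen ENK KO replicates 3 and 6 were females of 2 months. Replicates 28, 31 and 25 were males of 6, 7 and 9 months. In spleen too, ages other than 7 months occurred in the mutant group only, so genotype and age are confounded there. Of the 41 genes, 0 had spleen groups that did not overlap, against 1.71% of all genes tested, and 31 had a spleen difference of the same sign, against 54% of all genes with a thymus difference other than 0. Tmod4 differed by -0.49 in spleen, Mgst2 by 0.59 and Gnb4 by -0.02. Srpk2 differed by 0.08 there, from a WT mean of 9.88, a level like that in thymus. Limma called the difference between the spleen and thymus effects for 1 gene, Slc7a11 (-1.47, adjusted p = 0.0218). Slc7a11 lay under the filter level in both spleen groups and passed the filter through the thymus arrays, so its spleen effect is one of background signal and the size of the difference cannot be read. For Srpk2 the difference between tissues had an adjusted p of 0.323.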

How the data were processed

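RNA of sorted thymus CD4+CD8+ and spleen CD8+ cells was measured on 14 single-channel Affymetrix arrays, of which the 5 thymus arrays are described. The deposited values are log2 expression values that the authors made with RMA, per the submitters' processing notes. Not given in the sources used here are the software, its version and the build of the probe sets. RMA normalizes arrays to each other, which can damp differences shared by most genes.

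Of 28213 probe sets, 21640 had 1 gene symbol in the platform annotation, 1321 several and 5252 none in the table used. A RefSeq table of GRCm38.p6 held 21553 of the 21640 gene IDs, changed 0 symbols and gave chromosomes and gene order. Each of 19937 symbols was represented by its probe set of highest mean (954 genes had several). Tested were the 13641 genes that exceeded 6.76, the 40th percentile of the table, on 2 or more arrays. Limma 3.58.1 under R 4.3.3 fitted a mean per group on all 14 arrays (eBayes with a trend, Benjamini-Hochberg, adjusted p under 0.05). The steps were tested on simulated data.

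The members and lists were chosen with earlier results of these data known, and prefixes of the histone list were extended after the symbols were seen. Named were the 15 genes with the largest distance in each direction, called genes, up to 4 members of each list, En2, En1, Penk and the 10 tested neighbours of En2; further list members are given as examples. Values were tied where they differed by less than 1e-06. Promoters came from RefSeq, the first listed per gene. Alternatives were other scalings, filters, probe set rules, variance models, an age covariate, subsets of arrays, leaving out each thymus array and a call rule of p and fold.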

Additional observations from a re-analysis of the deposited data

Results flagged for a closer look

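For Slc7a11 limma gave a difference between the tissues under the same comparison. Its ENK KO effect was 1.29 in thymus and -0.18 in spleen CD8+ cells, and the spleen effect minus the thymus effect was -1.47 (SE 0.17, limma adjusted p = 0.0218). Both ENK KO thymus arrays lay above the WT range, while the spleen groups overlapped around means of 5.58 and 5.40. Both spleen means lay under the filter level of 6.76, where a change of the gene can be missed. The value therefore does not show that the mutation acts differently in the 2 tissues. When the library labelled spleen ENK KO replicate 28 was left out, the adjusted p was 0.0460. With an indicator of the age of 2 months limma called 0 genes for this difference between tissues.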

How the results depend on the processing

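No paired analysis was possible because no replicate number occurred in both groups. The count of 2 called genes held under quantile normalization, median centring, both other filters, the mean of probe sets and no variance trend. It was 1 with an age covariate, 0 with thymus arrays alone or males only, 5 when spleen ENK KO replicate 28 was left out, and 42 by the rule of an unadjusted p under 0.05 and a 1.5-fold difference. Leaving out each thymus array gave 1 to 14. The count of genes for which the spleen effect differed from the thymus effect, 1, became 0 with an age covariate. Genes above the WT range numbered 994 and those below 1251 under quantile normalization, and 1517 lay below under median centring. Leaving out each array in turn, which by construction can only add genes, gave 826 to 2797 above, 1086 to 2750 below, 21 to 194 above by at least 0.25 and 41 to 296 below by at least 0.25. Among the 30 genes named by distance no difference changed sign in any of these settings. Leaving out an array could not change a sign, because these genes were chosen for groups that do not overlap. The leave-one-out fits of a single ENK KO array assume that it varies like the other groups. Among the thymus arrays the age of 2 months occurred on ENK KO replicate 1 alone, where genotype and age cannot be told apart. Both thymus groups held an array labelled female. The age covariate was 1 indicator for all 14 arrays, shared with spleen ENK KO replicates 3 and 6, also of 2 months. It therefore assumes the same effect of age in both tissues.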

Other observations

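Counted by array, the mutant arrays differed in balance, with genes that both share included in each count. ENK KO replicate 1 (2 months) lay above the WT range by at least 0.5 for 35 genes and below it for 54, and ENK KO replicate 29 (7 months) for 37 and 20. The genes of small nucleolar and spliceosomal RNAs had 1 of 53 members above the WT range on both mutant arrays and 1 below, the latter being Scarna13. ENK KO replicate 1 alone had 27 of them above and 2 below (median difference 0.22), and ENK KO replicate 29 alone 3 above and 21 below (median -0.10). MicroRNA probe sets had 2 of 128 above and 3 below, with a median difference of -0.0026. Regulatory T cell markers had 2 of 10 above, Nrp1 (0.33) and Il2ra (0.69), and 1 below, Tnfrsf18 (-0.23). Cholesterol synthesis genes had 2 of 20 above, Idi1 (0.29) and Nsdhl (0.10). Of all genes, 4.04% lay above the WT range on both mutant arrays and 5.21% below it. Noct, a deadenylase-related gene with a daily rhythm, lay above the range at 0.31, and S100a11, a calcium-binding protein gene, at 0.64.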
